A study of Mus musculus with 96 samples.

Results

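Wild-type striatum was compared with wild-type cortex in 16 RNA sequencing libraries of the 96 in the series: 8 striata and 8 cerebral cortices that carry the genotype label Wild type, paired by the animal number that both titles of a mouse give. Each of the 8 mice, 4 male and 4 female, was on a C57BL/6 background, was 6 months old and gave both tissues, so each pair differs in tissue and shares the animal. These mice are labelled with no engineered Htt or Msh6 allele. The other libraries come from Msh6+/-, Msh6-/-, heterozygous Q140 knock-in mice and Q140 mice that also carry Msh6+/- or Msh6-/-, 8 mice a genotype, and enter only the last comparison; Q140 is a mouse model of Huntington's disease that carries an expanded CAG repeat in Htt. Whole tissue was used, so a value is a mean over all cells of a dissected piece, and a lower value from fewer cells of a type and one from less RNA per cell cannot be told apart.

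The striatum is the input station of the basal ganglia. Most of its neurons are GABAergic spiny projection neurons, which read glutamate from the cortex and thalamus and dopamine from the midbrain through receptors that raise or lower cyclic AMP. Direct-pathway neurons carry the D1 receptor with the peptides substance P and dynorphin, and indirect-pathway neurons carry the D2 receptor and an adenosine receptor with enkephalin. Most cortical neurons are glutamatergic, arise from the dorsal telencephalon (pallium) under other transcription factors and lie in layers, while GABAergic interneurons are the minority. Cholinergic interneurons are a small class in the striatum.

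The total count per library was 15883992 to 19906655 in striatum and 16725695 to 21425499 in cortex. Of 48795 genes in the tables, 16862 had enough counts to be tested with edgeR's quasi-likelihood test with the animal as a block; levels are given as CPM (a count scaled to the size of its library), differences as log2 fold change, striatum over cortex, with its standard error (SE), and a gene is called at a Benjamini-Hochberg adjusted p under 0.05. By this test 6274 genes (37.2%) were higher in striatum and 6353 (37.7%) higher in cortex, and 58.2% of these calls were smaller than 1.5-fold. The counts given below for lists and families stand against these shares of all genes tested. A difference of at least 2-fold was called for 1298 genes in striatum (7.7%) and 1730 in cortex (10.3%). For 3502 genes (20.8%) every striatum lay above every cortex in CPM, and for 3957 (23.5%) every cortex lay above every striatum. Libraries of one group are separate mice. The tissue separated the libraries along the first principal component, with 84.6% of the variance of log2 CPM, and sex along the second, with 3.27%.

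**Figure D1:**
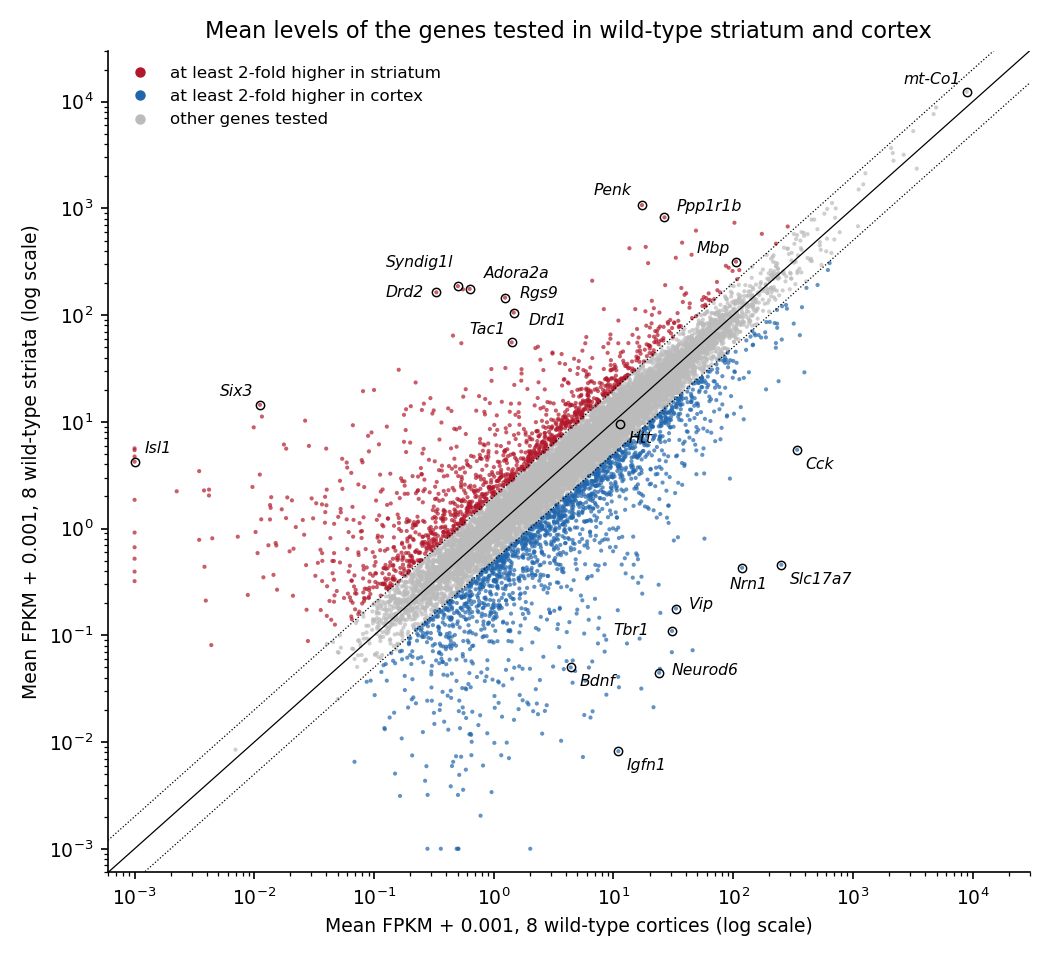
Mean deposited FPKM (fragments scaled to gene length and library size; plus 0.001, log axes) of each tested gene in the 8 cortices (x axis) and the 8 striata (y axis); the solid line marks equal levels and the dotted lines 2-fold differences. Drd2, Six3 and Isl1 lie far above the lines and Slc17a7, Neurod6 and Igfn1 far below, while Htt and mt-Co1 lie between the dotted lines.

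Expression of the genes that separate the tissues most ran from high levels to nearly none. The 15 largest striatal differences with a mean level of log2 CPM 3 or more and one sign in all 8 animals ran from 6.88 for Rgs9 to Isl1, which had no count in any cortex. Among them were the receptors Drd2, Adora2a and Gpr139, the transcription factors Isl1, Six3 and Rxrg, the bile-acid-family transporter Slc10a4, the AMPA receptor partner Syndig1l, the channel Ano2, and Lrrc10b, Sh3rf2, Serpina9 and Cd4, the last a T cell coreceptor known also from striatal neurons; 1 predicted gene was passed over. The 15 largest cortical differences ran from -7.40 for Dkkl1 to -10.40 for Igfn1, and included the glutamate and zinc transporters Slc17a7 and Slc30a3, the transcription factors Neurod1, Neurod2, Neurod6, Tbr1 and Emx1, the neurite growth factor Nrn1, the Nogo receptor relative Rtn4rl2, the netrin Ntn5, the peptide gene Vip, Tmem215, Dkkl1 and Igfn1, an immunoglobulin-domain gene; 2 predicted genes were passed over. At a deposited FPKM of at least 1 in every library of 1 tissue and under 0.1 in every library of the other, 25 genes marked striatum and 35 marked cortex. Genes at least 2-fold higher in striatum held 11.6% of the tested counts of a striatum and 3.17% of those of a cortex, and genes at least 2-fold higher in cortex held 4.12% and 13.0%.

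Promoter sequence is shown for 4 genes with opposite regional patterns, to set the letters just before the start beside the values that follow: the striatal peptide gene Tac1 (chr6:7554811-7555060) and receptor gene Drd2 (chr9:49340153-49340402), and the cortical peptide gene Cck (chr9:121495695-121495944) and transporter gene Slc17a7 (chr7:45163671-45163920). These are the 250 bases before the RefSeq start on GRCm38.p6, 5′ to 3′ along the gene, Cck on the minus strand and the others on the plus strand. Capitals mark 4 motifs searched on both strands: TGACG, the core of the cyclic AMP response element, CAGATG, an E-box read by NeuroD-type factors, TAATTA, a homeodomain core, and the TATA box letters TATAAA.
Tac1: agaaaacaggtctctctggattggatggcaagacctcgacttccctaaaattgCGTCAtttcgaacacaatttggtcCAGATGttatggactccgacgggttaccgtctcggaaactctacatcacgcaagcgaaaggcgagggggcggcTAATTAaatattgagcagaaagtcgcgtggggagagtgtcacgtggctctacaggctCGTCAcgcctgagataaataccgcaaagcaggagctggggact
Drd2: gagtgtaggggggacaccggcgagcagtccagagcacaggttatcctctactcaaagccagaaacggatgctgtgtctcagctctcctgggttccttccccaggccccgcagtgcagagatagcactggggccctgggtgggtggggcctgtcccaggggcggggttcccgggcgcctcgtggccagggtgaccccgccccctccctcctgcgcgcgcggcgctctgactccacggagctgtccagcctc
Cck: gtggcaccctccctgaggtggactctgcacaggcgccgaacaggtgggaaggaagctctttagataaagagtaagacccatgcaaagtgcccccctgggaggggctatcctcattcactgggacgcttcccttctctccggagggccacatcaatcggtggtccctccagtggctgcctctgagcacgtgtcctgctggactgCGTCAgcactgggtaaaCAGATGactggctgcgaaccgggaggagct
Slc17a7: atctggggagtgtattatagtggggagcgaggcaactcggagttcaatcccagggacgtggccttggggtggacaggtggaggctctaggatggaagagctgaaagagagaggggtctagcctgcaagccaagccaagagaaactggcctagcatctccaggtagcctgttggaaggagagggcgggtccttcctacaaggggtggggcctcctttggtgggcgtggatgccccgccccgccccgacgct
Tac1 and Cck both hold TGACG and CAGATG although their regional differences are opposite, and Drd2 and Slc17a7 hold none of the 4 motifs in this window. Among 9025 tested genes with 1 promoter entry, TGACG stood in 27.0% of windows, in 19.0% of those of the genes at least 2-fold higher in striatum and in 19.8% of those at least 2-fold higher in cortex. CAGATG stood in 9.68%, 13.3% and 12.2%, and TAATTA in 2.30%, 3.40% and 3.10% of the same sets. TATAAA stood in 6.28%, 8.02% and 7.98%. Windows of both regional sets held fewer CG dinucleotides: the median was 16 for all these genes, 12 for either set at 2-fold, and 7 and 8 for genes at least 16-fold higher in striatum and in cortex. These shares are descriptions of letters and were not tested.

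Genes listed for dopamine and cyclic AMP signalling were higher in striatum from receptor to effector, while other isoforms, given below, were higher in cortex. All 24 tested genes of this list were called higher in striatum, with a median log2 fold change of 4.09, against 0.0042 over all genes tested. The list was written from genes known for striatal signalling, with earlier results of these data known. Its count is thus a description and no independent test. Of the receptors, Drd2 (ENSMUSG00000032259, chromosome 9, 49340627 to 49408177) read 225 to 284 CPM (median 249) in the striata and 0.235 to 1.09 CPM (median 0.453) in the cortices, a difference of 8.91 ± 0.084 (SE), adjusted p = 1.5e-22. Adora2a (ENSMUSG00000020178, chromosome 10, 75316877 to 75334784), the adenosine receptor of indirect-pathway neurons, read 394 to 489 CPM (median 453) and 0.880 to 2.09 CPM (median 1.73), 8.11 ± 0.073, adjusted p = 9.7e-23. Drd1 (ENSMUSG00000021478, chromosome 13, 54051183 to 54055705) read 333 to 402 CPM (median 380.2) in striatum and 4.51 to 5.87 CPM (median 5.36) in cortex, 6.17 ± 0.049, adjusted p = 3.5e-23. In each of these 3 genes the lowest striatum stood far above the highest cortex, and the cortical level of Drd1 was above that of Drd2. Drd3 had 3 counts over all cortices, and its striatal level was 92.5-fold higher (95% counting interval 31.6 to 448), while the D5 receptor gene Drd5 differed by 2.02 ± 0.13. Among orphan receptors, Gpr6 differed by 6.67 and Gpr149 by 4.29.

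Downstream of the receptors, the subunits differed by isoform. Gnal, the G protein alpha subunit that couples D1 and adenosine receptors to adenylyl cyclase, read 1011 to 1202 CPM (median 1105) in striatum and 142 to 166 CPM (median 155) in cortex (2.82 ± 0.036, SE), and its widely expressed relative Gnas read 311 to 359.6 CPM (median 333) and 1084 to 1198 CPM (median 1159) (-1.78 ± 0.029). The ranges of the tissues did not overlap in either gene, and the direction was opposite. Gng7, the gamma subunit that pairs with Gnal, differed by 4.55 and Gng2 by -2.61. Adcy5, the main striatal cyclase, read 2056 to 2295 CPM (median 2149.9) in striatum and 119.8 to 149 CPM (median 139) in cortex (3.98 ± 0.034), while the calcium-stimulated cyclases Adcy1 and Adcy8 were higher in cortex (-2.28 and -2.76); of 9 cyclases tested, 2 were higher in striatum and 6 in cortex. Among 19 phosphodiesterases, which break cyclic nucleotides down, 12 were higher in striatum and 7 in cortex. Pde10a read 2439.8 to 2827 CPM (median 2668) in striatum and 57.3 to 113 CPM (median 74.2) in cortex (5.02 ± 0.11), Pde1b differed by 3.67, Pde1c by 3.28 and Pde7b by 2.61, against -2.81 for Pde1a and -2.60 for Pde5a. Rgs9, which speeds the shut-off of Gi proteins, read 888 to 984 CPM (median 931) and 5.63 to 9.74 CPM (median 8.43), and its partner Gnb5 differed by 1.36. Of 17 RGS genes 10 were higher in striatum and 5 in cortex, Rgs6 and Rgs7 among the latter (-2.11 and -1.09).

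Ppp1r1b encodes DARPP-32, the phosphatase inhibitor at the end of this pathway. It read 2305 to 2688 CPM (median 2389) in striatum and 68.5 to 86.6 CPM (median 80.1) in cortex (4.95 ± 0.043, SE, adjusted p = 9e-23), with no overlap. Per length, its mean deposited FPKM was 823 ± 36.8 in striatum and 26.7 ± 1.98 in cortex (SD, n = 8). The wider list of projection neuron identity genes had 36 tested members, and all 36 were called higher in striatum (median 3.23). Among the identity genes were the sodium channel subunit Scn4b (3.68), the small GTPase Rasd2 (3.38), the guanine exchange factor Rasgrp2 (4.19), the actin crosslinker Actn2 (4.44) and Syndig1l, at 411 to 525 CPM (median 476) against 1.03 to 2.04 CPM (median 1.14). At the low end were genes that cortical cells also use, Rgs4 (0.54) and the GABA-synthesis gene Gad1 (0.58).

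**Figure D2:**
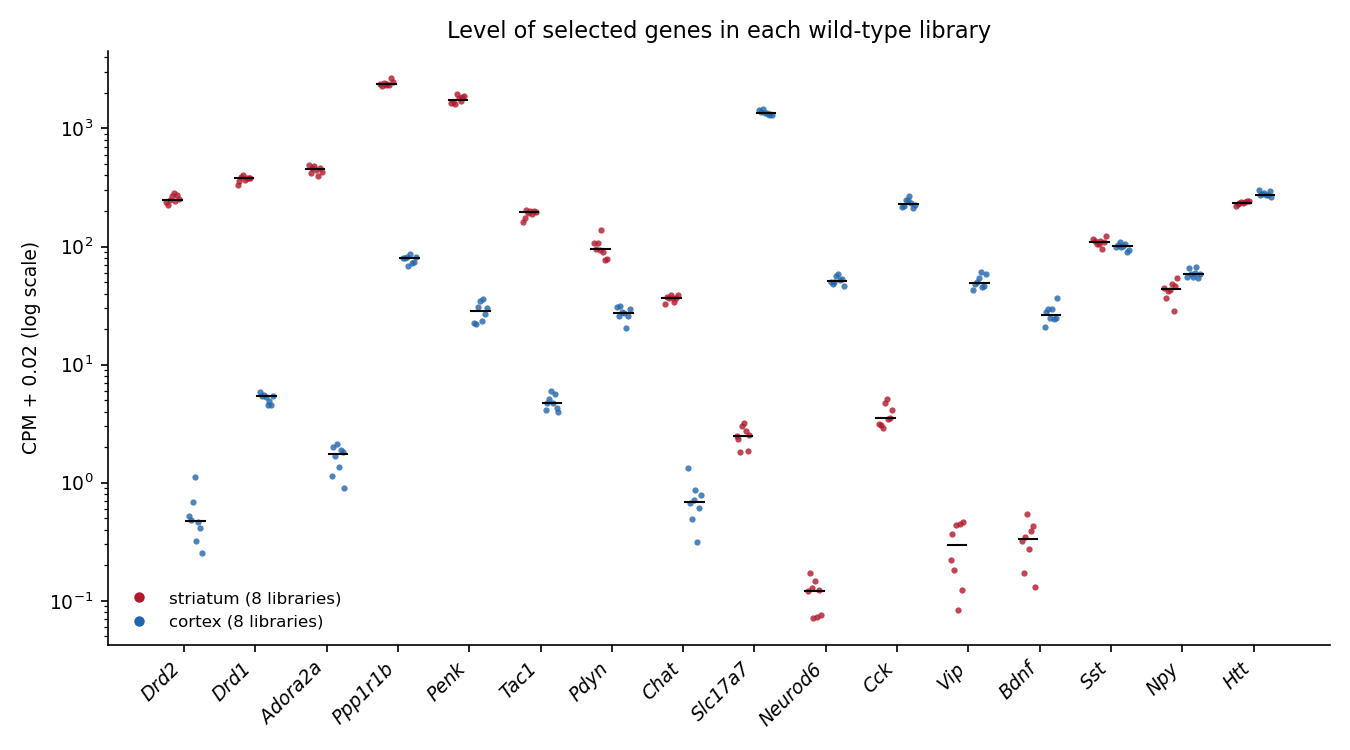
CPM plus 0.02 (log axis) of 16 genes in each of the 8 striata and 8 cortices; each point is a library and each bar the median. The tissues are far apart for Drd2 and for Slc17a7, overlap for Sst, and lie close together for Npy and Htt.

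The pathway markers of the direct and indirect projection neurons were both higher in striatum. Of 9 tested direct-pathway markers 8 were called higher and of 8 indirect-pathway markers 7, and the exceptions were Eya1 (-0.065 ± 0.084, adjusted p = 0.498) and Ptprm (0.023 ± 0.036, adjusted p = 0.567), whose ranges overlapped. The markers had medians of 2.93 and 6.32 (2.93 for the direct list with Isl1 at its bound). Isl1 (ENSMUSG00000042258, chromosome 13, 116298281 to 116309689), a LIM homeobox factor of direct-pathway and cholinergic neurons, read 14.8 to 18.3 CPM (median 17.3) in striatum and had 0 counts in the 8 cortices, which makes it at least 878-fold higher in striatum against 3 counts over the cortices. Slc35d3, needed for D1 receptor trafficking, differed by 6.70 and Ebf1 by 2.93. On the indirect side Sp9, a zinc finger factor, differed by 2.81 and the purine receptor P2ry1 by 3.0. Upb1, an enzyme of pyrimidine breakdown on the same chromosome as Adora2a, was scarcer (striatal median 5.08 CPM) and differed by 6.96.

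Neuropeptide genes split between the tissues. Of 17 tested precursors 6 were higher in striatum and 10 in cortex, 5 and 9 of them by at least 2-fold. Penk (ENSMUSG00000045573, chromosome 4, 4133531 to 4138819), proenkephalin, read 1612 to 1952 CPM (median 1754) in striatum and 22.3 to 35.8 CPM (median 28.5) in cortex (5.97 ± 0.070, SE, adjusted p = 2.1e-21). Tac1, the substance P precursor whose promoter is printed above, read 162 to 204 CPM (median 195) and 3.93 to 5.91 CPM (median 4.69) (5.29 ± 0.052), and Pdyn, prodynorphin, 76.3 to 137 CPM (median 94.8) and 20.6 to 31.3 CPM (median 27.6) (1.83 ± 0.071). All 3 were without overlap, but the Pdyn gap was the smallest of them. Nts and Trh were scarce in both tissues and higher in striatum (5.47 and 3.87; striatal medians 1.39 and 4.08 CPM). On the cortical side Cck (ENSMUSG00000032532, chromosome 9, 121489824 to 121495694) read 2.89 to 5.13 CPM (median 3.50) in striatum and 211 to 268 CPM (median 230.5) in cortex (-5.97 ± 0.057), and Vip 0.0634 to 0.447 CPM (median 0.275) and 42.8 to 61.0 CPM (median 49.1) (-7.49 ± 0.11). Adcyap1, Cort, Pnoc, Tac2, Crh and Cartpt were also higher in cortex, from -2.49 for Cartpt to -6.41 for Adcyap1. Grp had 3 counts over the striata, and its cortical level was 141-fold higher (95% counting interval 48.1 to 681). Somatostatin stood apart from this split: Sst read 94.7 to 123 CPM (median 110.2) and 89.5 to 109.9 CPM (median 100.4) (0.13 ± 0.047, adjusted p = 0.0201), with overlapping ranges and no call without 20-2 or 21-1. Npy was modestly higher in cortex (-0.48 ± 0.088).

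Peptide receptors also divided. Of 23 tested, 7 were higher in striatum and 14 in cortex (median -0.56). The delta, kappa and mu opioid receptors were higher in striatum: Oprk1, the dynorphin receptor, differed by 4.31, Oprm1 by 2.08 and Oprd1 by 0.61, whereas the nociceptin receptor Oprl1 was higher in cortex (-0.94). The substance P receptor Tacr1 read 47.9 to 62.6 CPM (median 54.9) in striatum and 0.596 to 2.08 CPM (median 1.12) in cortex (5.51 ± 0.10, SE). Cckbr, the brain receptor for Cck, read 1.54 to 5.78 CPM (median 3.67) and 57.4 to 75.2 CPM (median 67.3) (-4.19 ± 0.10), so ligand and receptor were both higher in cortex. Of 4 tested somatostatin receptors all were higher in cortex, from -0.93 for Sstr4 to -4.99 for Sstr3, although Sst itself hardly differed. Npy1r was higher in cortex (-1.71) and Npy2r in striatum (1.71).

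Transcription factors of the developing ventral and dorsal forebrain also split by region. Of 28 tested subpallial factors 21 were higher in striatum and 4 in cortex (median 2.92; the median is the same with Isl1 at its bound, 2.92). Six3 (ENSMUSG00000038805, chromosome 17, 85613608 to 85629302), a homeobox factor of the ventral forebrain, read 69.2 to 87.1 CPM (median 80.1) in striatum and 0 to 0.298 CPM (median 0.0232) in cortex (10.27 ± 0.14, SE, adjusted p = 1.4e-20). The antisense transcript Six3os1 overlaps Six3 in the annotation and had 2 counts over the cortices, 2090.0-fold fewer than in striatum (95% counting interval 579 to 17258); whether reads were counted by strand is not given in the sources used here, and reads of the pair may be mixed. Among other genes named here, Dlx6, Doc2a, Gabra5, Gapdh, Hspe1, Lig1, Msh6, Oprm1, P2ry13, Rarb, Tagln and Upb1 each overlap a tested gene on the opposite strand with at least as many counts, and Chat overlaps Slc18a3 on the same strand, so their counts are uncertain for the same reason. Rxrg, Rarb, Foxp2, Pbx3, Meis1, Dlx6, Bcl11b, Foxo1 and Meis2 were at least 8-fold higher in striatum, from 3.09 for Meis2 to 7.12 for Rxrg. The 4 members higher in cortex included Sp8 (-2.30), Dlx1 (-1.87) and Dlx2 (-0.75), so the paired genes Dlx1 and Dlx2 went the other way from Dlx5 (2.27) and Dlx6 (3.41).

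Of 29 tested pallial factors 25 were higher in cortex and 4 in striatum (median -1.85). Neurod6 (ENSMUSG00000037984, chromosome 6, 55677822 to 55681263), a basic helix-loop-helix factor of glutamatergic neurons, read 0.0521 to 0.150 CPM (median 0.101) in striatum and 46.4 to 58.8 CPM (median 51.1) in cortex (-9.01 ± 0.090, SE, adjusted p = 2.3e-22), and Tbr1, a T-box factor of deep-layer neurons, 0.391 to 1.15 CPM (median 0.512) and 159 to 176 CPM (median 170.4) (-8.12 ± 0.079). Neither overlapped, and Neurod6 was within a fraction of 1 CPM of 0 in every striatum. The 4 factors higher in striatum included Lmo3 (1.40), Pou3f1 (1.56) and Tle4 (1.91). Etv1 and Pax6 were higher in cortex by less (-0.37 and -0.48), with overlapping ranges.

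Genes of cortical glutamatergic neurons were higher in cortex in 17 of 19 tested cases (median -3.43). Slc17a7 (ENSMUSG00000070570, chromosome 7, 45163949 to 45176142), the vesicular glutamate transporter of cortical neurons, read 1.80 to 3.17 CPM (median 2.48) in striatum and 1290.1 to 1454 CPM (median 1363) in cortex (-9.11 ± 0.063, SE, adjusted p = 6.9e-24). Slc30a3, the zinc transporter of glutamatergic vesicles, read 0.0512 to 0.426 CPM (median 0.207) and 118 to 146 CPM (median 129.8) (-9.29 ± 0.090). The highest striatum held 3.17 CPM of Slc17a7, and every cortex was far above that. The thalamic-type transporter Slc17a6 was also higher in cortex (-6.93). The kinase Camk2a, abundant in both tissues, read 1835 to 2104 CPM (median 1989) and 4426 to 4752 CPM (median 4643) (-1.22), and Nrgn differed by -0.70 and Itpka by -0.28. Camk4 (1.0) and Baiap2 (1.34) were higher in striatum.

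Layer markers did not behave as one block. The shares over all genes tested were 37.2% higher in striatum and 37.7% higher in cortex. Of 20 tested upper-layer markers 13 were higher in cortex and 6 in striatum (median -1.52), of 19 layer 5 markers 9 and 7 (median -0.093), and of 20 layer 6 and subplate markers 9 and 9 (median 0.088). Cux2, Rorb and Rasgrf2 of the upper layers were higher in cortex (-4.17, -2.66 and -3.37). At 2-fold or more 12 upper-layer markers were higher in cortex and 4 in striatum, Pou3f1 (1.56), Svil (1.38) and Calb1 (1.22) among the latter. In the layer 5 list, Fezf2 was higher in cortex (-3.83), but Bcl11b, which it controls in corticospinal neurons, read 462 to 557 CPM (median 507) in striatum and 41.4 to 52.9 CPM (median 48.6) in cortex (3.40 ± 0.033, SE). Pcp4 (2.85) and Htr2c (2.38) were higher in striatum as well. In the layer 6 list, Tbr1, Nr4a2 (-4.31) and Cplx3 (-4.27) were higher in cortex, while Foxp2 (4.43), Syt6 (4.68), Crym (2.84) and Tle4 were higher in striatum.

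**Figure D3:**
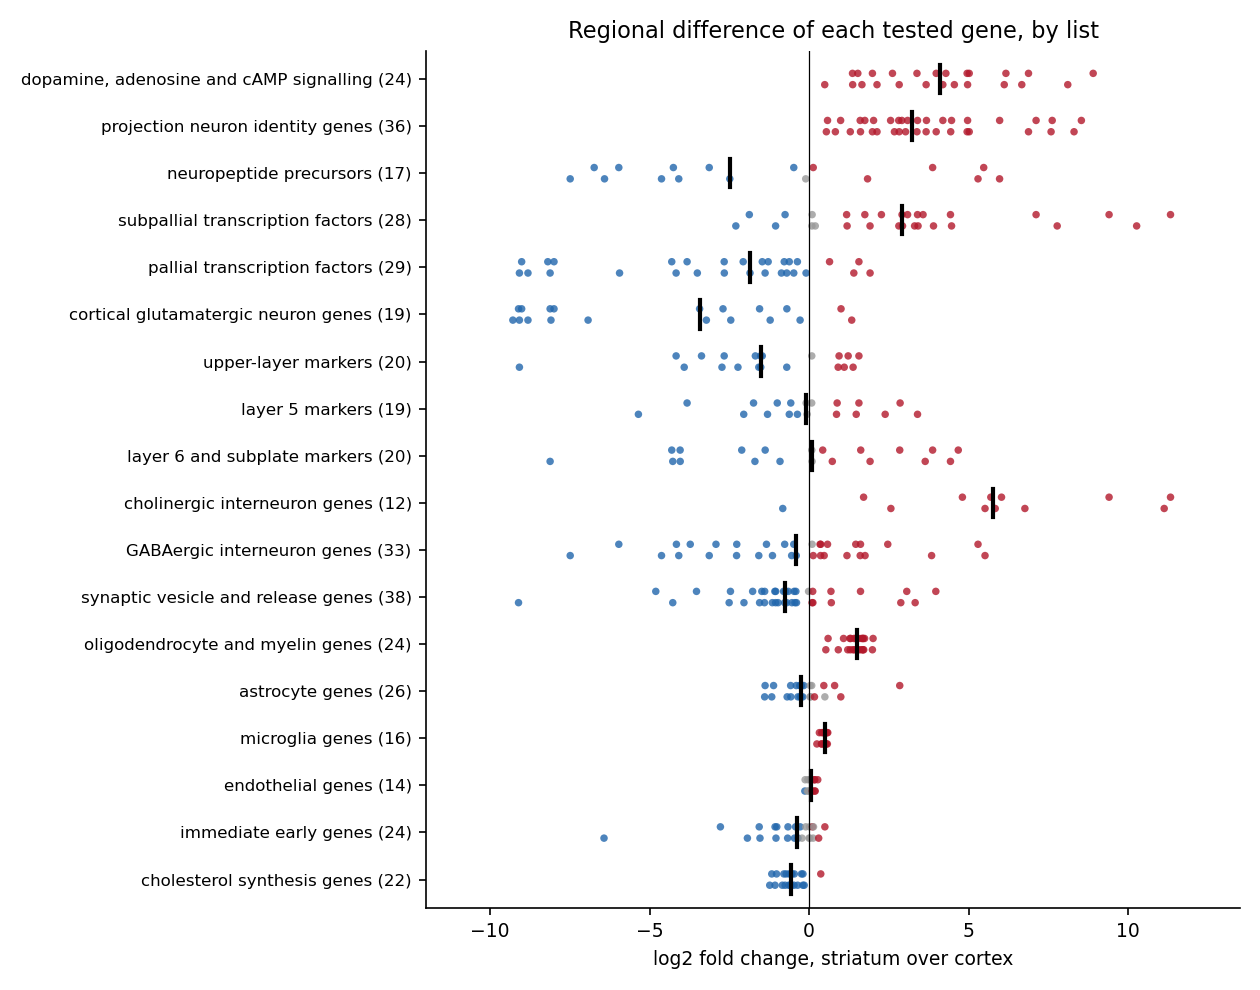
Log2 fold change, striatum over cortex, of each tested gene (point) in 18 lists, with the number tested in parentheses and the median as a bar; red points passed the test higher in striatum, blue ones higher in cortex, grey ones did not pass. All points of the dopamine, identity, myelin and microglia lists lie right of 0, and those of the layer 5 and layer 6 lists on both sides.

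Cholinergic interneuron genes were higher in striatum in 11 of 12 tested cases (median 5.77, or 5.61 with the 3 members that had 0 counts in cortex at their bounds). Chat, which makes acetylcholine, read 32.6 to 39.0 CPM (median 36.6) in striatum and 0.295 to 1.32 CPM (median 0.673) in cortex (5.70 ± 0.11, SE, adjusted p = 2e-18). The choline transporter Slc5a7 and the vesicular transporter Slc18a3 differed by 6.03 and 4.81. Lhx8 had 1 count over the cortices against a striatal median of 8.32 CPM. The autoreceptor Chrm2 was the exception, higher in cortex (-0.83).

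Of 33 tested GABAergic interneuron genes, 15 were higher in striatum and 17 in cortex (median -0.40). Genes shared by GABAergic cells, Gad2 (1.60) and Slc32a1 (1.61), were higher in striatum. Pvalb, the calcium buffer of fast-spiking cells, read 4.95 to 15.8 CPM (median 6.79) in striatum and 56.4 to 74.8 CPM (median 60.6) in cortex (-2.92 ± 0.15, SE), and the fast potassium channel genes Kcnc1 and Kcnc2 were also higher in cortex (-1.34 and -3.73). Nos1, the nitric oxide synthase of somatostatin and Npy cells, was higher in striatum (1.75), as were Chodl (2.47), Pthlh (1.19) and Th (3.84), whereas Npy and Cort, described above, were higher in cortex. Lhx6, a factor of interneurons from the medial ganglionic eminence, read 20.6 to 29.7 CPM (median 23.1) and 19.4 to 23.7 CPM (median 22.3) (0.094 ± 0.051, adjusted p = 0.102), with overlapping ranges. Calb2 (-2.27), Htr3a (-2.27) and Vip were higher in cortex.

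Receptors for other transmitters differed between the tissues by subtype. The counts of these families stand against 37.2% of all genes tested higher in striatum and 37.7% in cortex. Of 11 serotonin receptors 5 were higher in striatum, led by Htr1d (5.81), Htr1b (4.04) and Htr4 (3.11), and 6 in cortex, led by Htr1a (-2.98), Htr7 (-2.81) and Htr3a. Of 9 adrenergic receptors 6 were higher in cortex, with Adra1d at 0.0533 to 0.417 CPM (median 0.358) in striatum and 37.4 to 52.7 CPM (median 48.2) in cortex (-7.22 ± 0.10, SE), and 2 in striatum, Adra2b (5.45) and Adra2c (1.93). The metabotropic glutamate receptors Grm4 and Grm5 were higher in striatum (1.75 and 1.41), whereas Grm2 read 0.799 to 1.65 CPM (median 1.21) in striatum and 71.7 to 94.8 CPM (median 85.0) in cortex (-6.15 ± 0.070). The D1-side muscarinic receptor Chrm4 was higher in striatum (1.53) and Chrm3 in cortex (-2.74); the nicotinic subunit Chrnb3 had 1 count over the striata against a cortical median of 4.82 CPM. The A1 receptor gene Adora1 was higher in cortex (-0.64), opposite to Adora2a. Of 13 GABA-A subunits 7 were higher in striatum, Gabra4 and Gabrd among them (0.90 and 0.78), and 5 in cortex, Gabra3 and Gabra5 among them (-2.39 and -1.23). Of 18 ionotropic glutamate receptor subunits 8 were higher in striatum and 7 in cortex: Grin2a was higher in cortex (-1.22) and Grik2 in striatum (1.91), and the obligatory NMDA subunit Grin1 did not pass (-0.050 ± 0.027, adjusted p = 0.0996; called without 20-2).

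**Figure D4:**
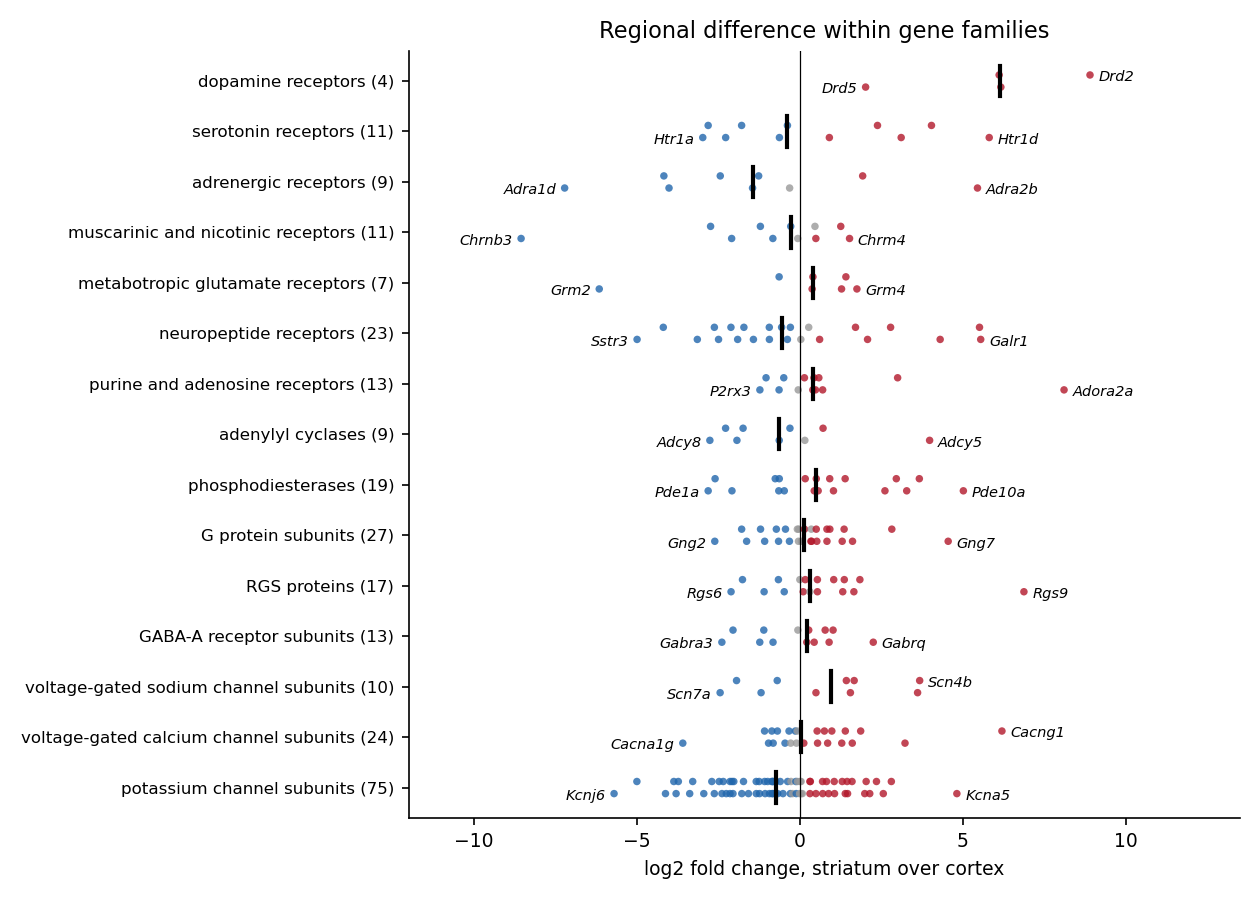
Log2 fold change, striatum over cortex, of each tested member (point) of 15 gene families, with the number tested in parentheses, the median as a bar and the lowest and highest member named; red, blue and grey as passed higher in striatum, passed higher in cortex, and not passed. Each family but the dopamine receptors has members on both sides of 0.

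Ion channels also differed by subunit. Of 75 tested potassium channel subunits 22 were higher in striatum and 45 in cortex (median -0.74). Kcnj3, Kcnj6 and Kcnj9, which form Gi-gated inward rectifiers, were higher in cortex (-3.29, -5.70 and -2.70). Kcnj2 and Kcnj4, strong inward rectifiers that set the resting potential of spiny neurons, were higher in striatum (2.35 and 1.06), with the A-type genes Kcnd2 (1.30) and Kcna4 (2.56) and with Kcna5 (4.82). Of 10 sodium channel subunits, Scn4b read 2134 to 2649 CPM (median 2369) in striatum and 161 to 201 CPM (median 186) in cortex (3.68 ± 0.035, SE), with no overlap. Scn1a and Scn8a were higher in cortex (-1.19 and -0.69) and Scn9a in striatum (3.61). Of 24 calcium channel subunits, the T-type genes went apart, Cacna1g higher in cortex (-3.59) and Cacna1h in striatum (1.87). Hcn4 was higher in striatum (1.20).

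Of 38 tested vesicle and release genes 27 were higher in cortex and 10 in striatum (median -0.75). Snap25, a core fusion protein, read 1250.4 to 1349.5 CPM (median 1311) in striatum and 3339.5 to 3580.5 CPM (median 3415) in cortex (-1.40 ± 0.023, SE), and its partners Stx1a (-3.53), Syt1 (-1.05) and Syp (-1.48) were also higher in cortex. Isoforms on the striatal side were Doc2b (3.97), Unc13c (3.32), Sv2c (3.06) and Syt10 (2.87), opposite to Doc2a (-4.81), Unc13b (-2.04) and Sv2b (-1.55). Of 26 postsynaptic scaffold genes 13 were higher in striatum and 12 in cortex. Shank1 and Shank2 were higher in cortex (-2.98 and -1.23) and Shank3 in striatum, at 568 to 655 CPM (median 586) against 331 to 360.3 CPM (median 337) (0.81). Of the CaMKII genes Camk2b was higher in striatum (1.0) and Camk2a, Camk2d and Camk2g in cortex, Camk2d by -1.88 and Camk2g by -2.17.

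Trophic, retinoid and endocannabinoid genes were found on both sides. Bdnf (ENSMUSG00000048482, chromosome 2, 109674700 to 109727007), which cortical neurons supply to striatum, read 0.112 to 0.521 CPM (median 0.313) in striatum and 20.8 to 37.0 CPM (median 26.3) in cortex (-6.43 ± 0.13, SE, adjusted p = 2.3e-18). Its receptor gene Ntrk2 read 501 to 593 CPM (median 547) and 659.9 to 740.0 CPM (median 723) (-0.37 ± 0.024), close in both tissues although without overlap. Gdnf was higher in striatum (7.08, striatal median 7.15 CPM), Gfra1 in striatum (1.13) and Gfra2 in cortex (-4.66). Of 17 retinoid genes 10 were higher in striatum, led by the receptors Rarb (4.47) and Rxrg and the binding protein Crabp1 (6.06), and 3 in cortex, the receptor Rara (-1.75) and the synthesis enzymes Aldh1a2 and Aldh1a3 (-2.23 and -3.28). Of 9 endocannabinoid genes the receptor Cnr1 was the 1 higher in striatum, at 418 to 617 CPM (median 468) against 140.2 to 174 CPM (median 150.3) (1.66 ± 0.052), and all 8 others were higher in cortex, among them the degrading enzymes Faah (-3.24) and Mgll (-0.91) and the synthesis enzyme Dagla (-0.52).

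Guidance and adhesion families were also divided, and their counts stand against 37.2% of all genes tested higher in striatum and 37.7% in cortex. Of 29 semaphorins and plexins 9 were higher in striatum and 16 in cortex, of 20 Eph receptors and ephrins 6 and 10, of 19 cadherins 6 and 10, and of 23 Wnt and Frizzled genes 7 and 13. Of 13 contactin (Cntn) and contactin-associated (Cntnap) genes 7 were higher in striatum, led by Cntnap3 (2.75), and 5 in cortex, led by Cntn3 (-1.33). Of 4 Robo genes 3 were higher in striatum, led by Robo1 (1.34), and Robo3 in cortex (-1.76). Efnb3 was higher in striatum (2.32) and Ephb2, Ephb3 and Efna5 in cortex (-2.50, -2.80 and -2.45). The netrin receptor Dcc was higher in striatum (2.13), and Unc5d (-3.44) and Ntn5 in cortex. Wnt9a and Wnt10a were higher in cortex (-6.0 and -4.50) and Wnt2 in striatum (2.14). Of 42 collagens 26 were higher in cortex, Col5a1 among them (-4.04), and 9 in striatum, with Col6a5 at 3.45.

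Among non-neuronal lists myelin genes differed most. All 24 tested oligodendrocyte and myelin genes were called higher in striatum, 21 of them by at least 2-fold (median 1.49). Mbp read 2339 to 3099.8 CPM (median 2616) in striatum and 799 to 998 CPM (median 891) in cortex (1.59 ± 0.042, SE, adjusted p = 1.9e-16). The summed level of the 24 genes was 6238 to 8195 CPM (median 6984) in striatum and 2143 to 2659 CPM (median 2353) in cortex. Of 12 precursor genes 9 were higher in striatum by smaller steps (median 0.38), with Pdgfra at 0.22. All 16 microglial genes were higher in striatum, from 0.24 for Ptprc to 0.58 for P2ry13, with none at 2-fold; the call for Ptprc was lost by DESeq2, without the block, and without 13-1, 15-2, 16-2, 18-1, 20-2 or 21-1. The receptor gene Csf1r read 98.9 to 119 CPM (median 109) and 77.0 to 85.2 CPM (median 83.1). Of 26 astrocyte genes 16 were higher in cortex and 5 in striatum (median -0.25). Gfap read 12.8 to 41.0 CPM (median 23.0) in striatum and 48.7 to 65.4 CPM (median 55.1) in cortex (-1.17 ± 0.13), and Gjb6 and Lhx2 were also higher in cortex (-1.39 and -1.38), whereas Crym (2.84) and the bicarbonate transporter Slc4a4 (0.99) were higher in striatum. Of 14 endothelial genes 6 passed higher in striatum and 1, Cldn5 (-0.13), in cortex, none beyond 0.27 for Ly6c1; the cortical call was lost by DESeq2, under the median-ratio scaling of RLE and without 13-2, 15-2, 16-1, 16-2 or 21-1, and became 2 without 13-1 or 20-2. Of 16 pericyte, mural and fibroblast genes 6 were higher in striatum, the mural genes Tagln (1.12) and Abcc9 (0.37) among them, and 8 in cortex, the fibroblast genes Ogn (-1.88), Lum (-1.67) and Col1a2 (-1.51) among them.

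**Figure D5:**
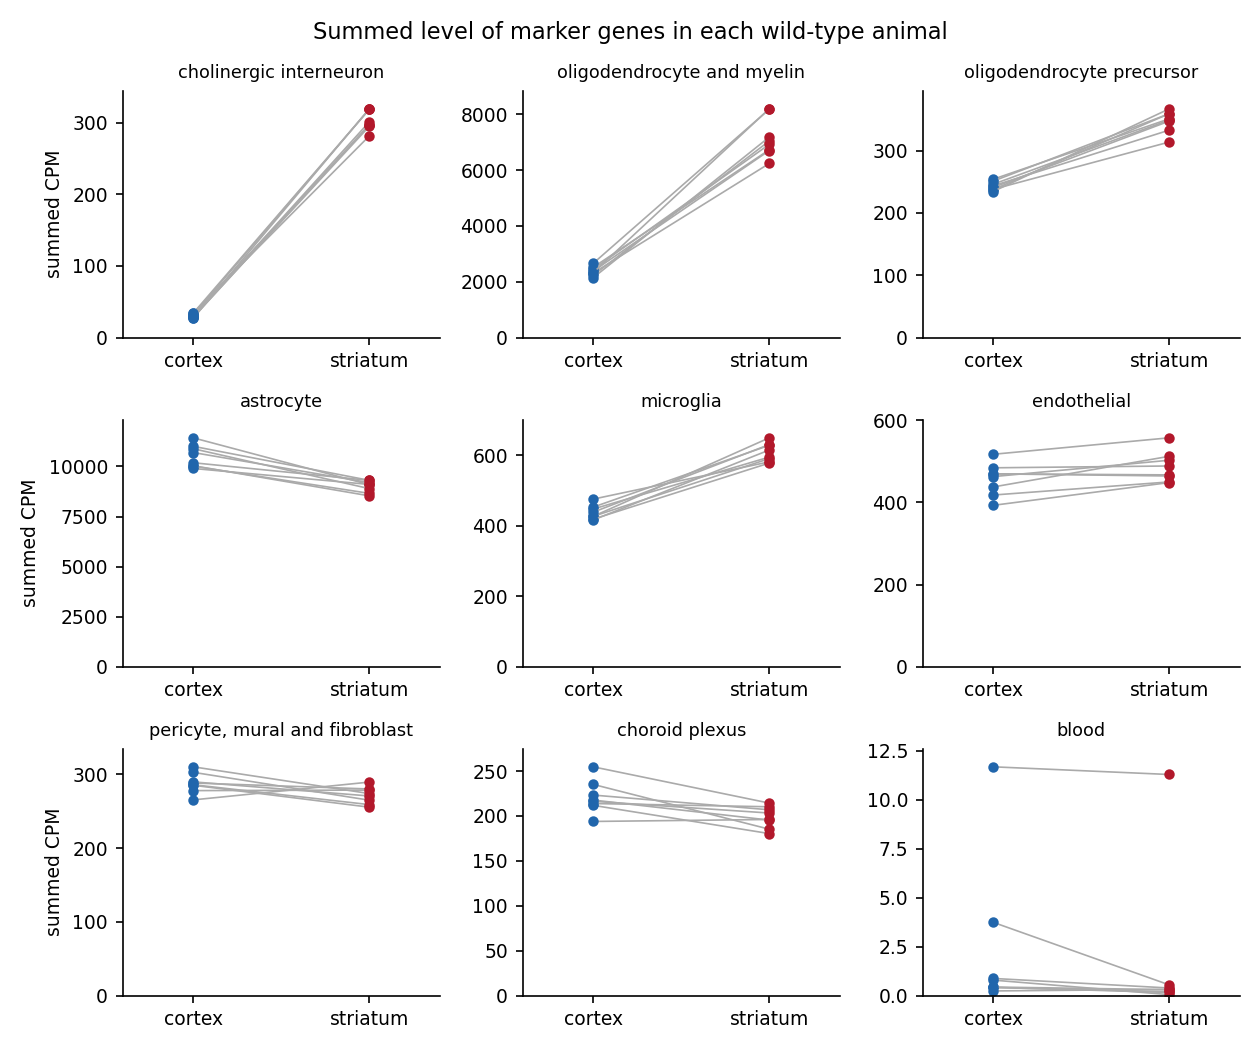
Summed CPM of 9 marker lists in each wild-type animal, cortex (blue) joined to striatum (red) of the same mouse, axes from 0. Every mouse had a higher myelin, precursor, microglial and cholinergic sum in striatum and a higher astrocyte sum in cortex, and animal 18-1 has the highest blood sum in both tissues.

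Marker lists of neighbouring tissue were summed in each library. Of 12 choroid plexus genes 5 were tested, of which 4 were higher in striatum and 1, Enpp2 (-0.33), in cortex. The whole list of 12, untested members included, summed to 180.4 to 214 CPM (median 199.7) in striatum and 194 to 255 CPM (median 217) in cortex. By its median this sum went with Enpp2 and against the 4 other tested members. Ttr was a small part of it, so the sum is no measure of plexus tissue. Ttr read 0.533 to 16.6 CPM (median 2.45) and 0.147 to 1.42 CPM (median 0.741) (2.47 ± 0.34, SE, adjusted p = 2.8e-06), with overlap, Clic6 was higher in striatum (6.35), and Folr1 and Otx2 were below the filter, at no more than 0.507 and 0.401 CPM in any library. The midbrain dopamine genes Slc6a3, Pitx3 and En1 were below the filter, with a highest library of 0.320 CPM for Slc6a3. The thalamic list summed to 102 to 122 CPM (median 111) in striatum and 195 to 219.8 CPM (median 205) in cortex, and of its 10 tested genes 6 were higher in striatum and 4 in cortex. Its defining genes Tcf7l2 and Prkcd were slightly higher in striatum (0.31 and 0.45; striatal medians 4.20 and 9.05 CPM), Tcf7l2 not on the log2 FPKM scale, and Synpo2 by more (3.01). The 4 higher in cortex were Slc17a6, Ptpn3 (-4.72), Calb2 (-2.27) and Rgs16 (-1.76), with Slc17a6 at -6.93. The pallidal and septal list, which shares Pvalb and Etv1 with cortex, summed to 173 to 215 CPM (median 189.9) and 399 to 469 CPM (median 457). The hippocampal list summed to 464 to 583 CPM (median 526) and 508 to 599 CPM (median 581). Its members C1ql2, Tdo2, Dsp, Spink8 and Iyd were below the filter, and of its 8 tested genes 4 were higher in striatum and 4 in cortex. The ependymal list, from the cells that line the ventricles, summed to 17.6 to 39.8 CPM (median 21.6) and 12.8 to 16.6 CPM (median 14.5), higher in the striatum of all 8 animals, and 5 of its 6 tested genes were called higher there, Foxj1 by 1.24. Nkx2-1 and Lhx8, found in pallidal and septal as well as cholinergic cells, were higher in striatum, Nkx2-1 by 7.78 at a striatal median of 6.64 CPM. No blood gene passed the filter; the 8 summed to 0.0521 to 11.3 CPM (median 0.312) in striatum and 0.241 to 11.7 CPM (median 0.618) in cortex. The part of adjoining tissue in the regional differences was not tested.

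Of 24 immediate early genes 14 were higher in cortex and 3 in striatum (median -0.39), with Bdnf, described above, by far the lowest. Fos read 2.66 to 40.6 CPM (median 16.7) in striatum and 20.5 to 77.3 CPM (median 60.7) in cortex (-1.93 ± 0.19, SE, adjusted p = 2.8e-08), with overlapping ranges, and Arc 58.1 to 325 CPM (median 192) and 197 to 773 CPM (median 557) (-1.56 ± 0.10). Ier2 was higher in cortex (-2.78), Egr1 by less and not without the block (-0.35), and Npas4 and Fosb did not pass (-0.22 ± 0.15 and 0.12 ± 0.10, adjusted p = 0.187 and 0.263), although Npas4 passed without 21-1 and Fosb without 13-1. The 3 striatal calls of this list were small and unstable: the count was 0 without the replicate block, 1 by DESeq2, and 1 without 16-1 or without 18-1. Of 22 cholesterol synthesis genes 21 were higher in cortex (median -0.57), Sqle among them (-1.17). The 1 higher in striatum was Cyp46a1 (0.37), which turns cholesterol over rather than making it. Of 20 heat shock and chaperone genes 9 were higher in striatum and 8 in cortex (median 0.059), against 37.2% and 37.7% of all genes tested. Cryab (0.59) and Hspe1 (0.45) were highest on the striatal side, and Hspa1a and Hspa1b on the cortical side (-1.78 and -2.15); the last pair are near-identical copies, so their counts are uncertain.

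The most abundant transcripts of both tissues by deposited FPKM came from the mitochondrial genome, 8 of the 10 highest in each; mt-Co1 averaged 12356 ± 550.3 in striatum and 8922 ± 449 in cortex (SD, n = 8). The other 2 of each were the predicted genes Gm23935 and Gm10925. The mitochondrial messages of the respiratory chain were higher in striatum, from 0.47 for mt-Co1 to 0.84 for mt-Cytb, while of all 36 respiratory chain genes 17 were higher in striatum and 11 in cortex. Nuclear copies of mitochondrial sequence make these counts uncertain. Of 14 common reference genes 12 were called in one direction or the other, against 74.9% of all genes tested. They ran from -0.80 for B2m to 0.72 for Eef1a1, with none at 2-fold. Gapdh did not pass (-0.0046 ± 0.052, adjusted p = 0.941); it read only 11.8 to 15.9 CPM (median 15.0) in striatum, and reads shared with its many pseudogenes could be lost in counting.

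Htt, the Huntington's disease gene, was expressed in both tissues and slightly higher in cortex. It read 219 to 242 CPM (median 235) in striatum and 262 to 303 CPM (median 275) in cortex (-0.25 ± 0.032, SE, adjusted p = 8.3e-07), without overlap. Msh6, the subunit that recognises base mismatches, read 14.2 to 18.0 CPM (median 17.2) and 18.1 to 20.7 CPM (median 19.1) (-0.19 ± 0.052, adjusted p = 0.0031), and its call ended in the females alone (adjusted p = 0.0578). Of 27 mismatch repair and repeat instability genes 10 were higher in striatum and 9 in cortex, against 37.2% and 37.7% of all genes tested. Pole (-1.0) alone of the called genes reached 2-fold. Msh3, of the complex that binds small loops, and Mlh3 were higher in striatum (0.33 and 0.51). Msh3 read 21.1 to 28.6 CPM (median 25.2) and 17.6 to 22.1 CPM (median 20.6), with overlapping ranges. Lig1 was higher in cortex (-0.91), and Fan1 in striatum (0.29). Of the Htt partners, Hap1 (1.04) and Rasd2, also known as Rhes, were higher in striatum.

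The regional difference was then compared between the 4 males and the 4 females. No gene passed the test of the tissue by sex term by edgeR (0%) or DESeq2, with 694 of 16862 genes at an unadjusted p under 0.05 by edgeR and 229 by DESeq2. The smallest adjusted p was 0.082 by DESeq2 and 0.556 by edgeR. The latter was for Unc5d and Strip2, whose striatum over cortex log2 fold change, female minus male, was -0.64 ± 0.12 and 0.35 ± 0.066 (SE). For Ttr, the choroid plexus gene, it was 2.36 ± 0.48 (adjusted p = 0.563).

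Against other genotypes, the wild-type regional difference was compared in a fit of all 96 libraries, in which 18440 genes were tested and every comparison shares the 16 wild-type libraries. In Msh6+/- mice no gene's regional difference differed from that in wild type (0%; 792 genes at an unadjusted p under 0.05 by edgeR), and in Msh6-/- mice 2 did (0.0108%). The 2 were Wwox, an oxidoreductase gene (0.52 ± 0.074, adjusted p = 7.9e-05), and Ttc7 (-0.41 ± 0.073, adjusted p = 0.0082), as wild type minus Msh6-/-. The call for Ttc7 ended without the replicate block (adjusted p = 0.622) and with the libraries of the 2 genotypes alone (adjusted p = 0.206), and that for Wwox did not. In heterozygous Q140 knock-in mice 3394 genes differed (18.4%). Of the dopamine and cyclic AMP list 22 of 24 genes were among them, and the median log2 fold change of the list was 4.09 in wild type, 4.16 in Msh6+/-, 4.01 in Msh6-/- and 3.52 in Q140. Of the projection neuron identity list 29 of 36 were, with medians of 3.23 in wild type and 2.77 in Q140. Of the cholinergic list 0 of 12 were (5.76 and 5.63), of the myelin list 1 of 24 (1.49 and 1.54) and of the cortical glutamatergic list 9 of 19 (-3.44 and -3.55). Wild type minus Q140 was above 0 for 5 of these 9 and below 0 for 4, against 21 and 1 in the dopamine and cyclic AMP list. Stmn2 had the smallest adjusted p in that contrast, with a regional log2 fold change of -2.13 in wild type and -1.34 in Q140. Ryr1 stood at 2.34 and 0.59, Ddit4l at -0.22 and -2.10, and Sfmbt2 at -0.10 and 2.03.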

How the data were processed

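RNA sequencing of dissected cerebral cortex and striatum was analysed from 2 gene tables, with 8 wild-type mice giving both tissues. Per the labels' protocols, RNA was extracted with a Qiagen RNeasy kit and libraries were made with the Illumina TruSeq stranded protocol. The submitters' processing notes name STAR 2.7.5c, SAMtools 1.10, HTSeq 0.12.3 and the mouse build GRCm38. The authors deposited read counts per gene, 1 column a library, and FPKM values, which per the file headers are scaled to gene length and depth; the sources used here do not give the strand setting, annotation release and filters. No column was without a sample (0).

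Total counts were 15883992 to 19906655 per striatum and 16725695 to 21425499 per cortex, which gave a median SE of 0.055 log2 units. Gene coordinates are those of GENCODE M21 on GRCm38, and promoters are from RefSeq, GRCm38.p6. Counts were filtered with filterByExpr (minimum count 10, total 15), scaled by TMM (trimmed mean of M values) and fitted with edgeR 4.0.16 (R 4.3.3), quasi-likelihood, with tissue and animal as terms and Benjamini-Hochberg adjustment at 0.05 over all genes tested. CPM use the TMM library sizes of the tested genes. Every adjusted p in the text is from edgeR unless another tool is named. Sex and genotype contrasts used the tissue by sex term in the wild-type libraries and the tissue by genotype terms in all 96, with the animal as a block. The alternatives were DESeq2 1.42.0, RLE scaling, no low-count filter, limma 3.58.1 on log2(FPKM + 0.1) and log2(FPKM + 1), all 96 libraries, an adjusted p of 0.01, each sex alone, no block, and each animal left out. Counting intervals and floors (3 counts) are 95% and cover counting error only.

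The animal number pairs the samples because both tissues come from the same mouse: deviations from the tissue means correlated at 0.229 to 0.329 within the 8 animals (median 0.278), over 16862 genes. The median correlation of each striatum with the cortices of the other animals was -0.171 to -0.0976. Subtracting the tissue means pulls such values below 0 where those within animals are above it.

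Named genes are the 15 largest differences in each direction (adjusted p under 0.05, mean log2 CPM at least 3, 1 sign in all 8 animals), up to 8 members a list with the smallest adjusted p and up to 3 against the majority, all members of lists of up to 15, Htt and Msh6, the 10 highest FPKM and up to 8 genes a contrast. Chosen after their values were seen were Actn2, Cartpt, Chodl, Cort, Crh, Dlx5, Doc2a, Egr1, Fan1, Fos, Fosb, Gfap, Gpr149, Grin1, Itpka, Kcnc1, Kcnc2, Kcnj2, Kcnj4, Meis1, Msh3, Npas4, Npy, Nrgn, Oprd1, Oprl1, Pax6, Pthlh, Ptprc, Rasgrp2, Rgs4, Shank3, Sstr4, Sv2b, Syp, Tac2 and Unc13b. There were 41 gene lists and 35 families formed by symbol. The comparison, its lists and its families were chosen with earlier results of these data known. Results for some genes are not reported here.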

Additional observations from a re-analysis of the deposited data

Results flagged for a closer look

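Of 65 sets of 8 values examined for a single animal far from the other 7 (gap to the nearest over the range), 7 had one, and chance alone gives this in about 1 set in 20. Summed CPM of pallidal and septal genes in cortex was 398.6 in animal 13-2, against 453 to 469 in the others, and of hippocampal genes in cortex 508 in animal 18-1, against 569 to 599. The sum of midbrain dopamine genes in cortex was 67.9 in animal 21-1, against 48.2 to 56.2. Blood genes summed to 11.3 CPM in the striatum and 11.7 in the cortex of animal 18-1, against 0.0521 to 0.550 and 0.241 to 3.75 in the others. The striatum minus cortex log2 difference of Six3 was lowest in animal 16-1, at 7.69 against 8.94 to 9.71. That of Neurod1 was nearest 0 in animal 15-2, at -5.77 against -7.34 to -6.67; both genes are near 0 counts in 1 tissue.

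The regional difference was tested against that in other genotypes, and 2 genes differed between wild type and Msh6-/- and 3394 between wild type and Q140. As wild type minus the other genotype on the log2 scale, Wwox stood at 0.52 and Ttc7 at -0.41 against Msh6-/-. Against Q140 the values were -0.79 for Stmn2, 1.75 for Ryr1, 1.89 for Ddit4l, 0.51 for Rasgef1a, 0.66 for Fbxl16, -1.40 for Ipcef1, 0.70 for Zbtb18 and -2.13 for Sfmbt2. These contrasts share the wild-type libraries.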

How the results depend on the processing

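Counts of genes higher in striatum or in cortex stayed within 1.5 times under every alternative run. The counts of at least 2-fold moved from 1298 and 1730 to 683 and 903 on the log2(FPKM + 1) scale, where the added 1 shrinks folds of low genes, and to 2009 in striatum with no low-count filter, with more genes tested; DESeq2 gave 1324 and 1740. Without the replicate block the counts were 6038 and 6173, at 2-fold 1295 and 1726, 0 for sex, 0 for Msh6+/-, 1 for Msh6-/- and 2639 for Q140. Leaving out each animal in turn gave 6051 to 6227 and 6188 to 6293 genes, and 1295 to 1320 and 1711 to 1752 at 2-fold. With the libraries of the 2 genotypes alone the Msh6-/- count was 1, and Ttc7 was the call lost in both cases. No called value turned direction under these alternatives, and the calls of Cldn5, Ddit4l, Egr1, Msh6, Ptprc, Sst and Tcf7l2 were lost under at least 1. Of 2700 alternative counts over gene lists 35 moved by more than 1.5 times, mostly in lists with few calls; the cause was not tested. Depth limited scarce genes: the median SE was 0.227 below a mean log2 CPM of 0 and 0.033 above 5.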
